A study of Mus musculus with 4 samples.

Results

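Ventricular cardiomyocyte nuclei, the nuclei of the muscle cells of the heart's main pumping chambers, were followed in 4 single-nucleus RNA libraries, each made from 1 whole mouse heart. Nuclei were chosen by 3 conditions on their raw UMIs (unique molecular identifiers, each standing for 1 captured RNA molecule). Ttn, Ryr2 and Myh6 together made up 3% or more of the UMIs of a nucleus, 5 atrial genes (Kcnj3, Kcnh7, Mybphl, Myl7 and Sln) had 3 or fewer UMIs in sum, and 4 genes of other cells (Pdgfra of fibroblasts, Cdh5 of endothelium, Pdgfrb of pericytes and Mrc1 of macrophages) had 1 or fewer. Of 38134 nuclei past the quality filter 6820 met the rule, 1254 and 1679 of them in hearts with an injured father and 1978 and 1909 in hearts with an uninjured father. The hearts came from male wild-type C57BL/6J mice that had themselves been injured on day 1 after birth and were taken 21 days after that injury, so every heart in both groups had been injured. In 2 libraries the father had been injured too (hearts 1 and 2 with an injured father), and in 2 it had not (hearts 1 and 2 with an uninjured father). Hearts were snap frozen, and an antibody to Ter119, a red cell antigen, was used in a sort meant to leave out blood cells. The sources used here do not give the kind of injury, the fathers or the litters, and no heart of an uninjured offspring is among the samples.

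A cardiomyocyte contracts when an electrical signal opens calcium channels of its surface membrane, calcium leaves the sarcoplasmic reticulum through the ryanodine receptor Ryr2, and myosin of the thick filament then pulls on actin of the thin filament. Titin, the product of Ttn, spans the sarcomere as a spring, and proteins of the Z-disc anchor the thin filaments and sense stretch. In mice the adult ventricle uses the myosin heavy chain Myh6 and burns mainly fatty acids, while the fetal and the stressed ventricle use more of the Myh7 chain and of the natriuretic peptide genes Nppa and Nppb. Mouse cardiomyocytes leave the cell cycle within the first days after birth.

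The chosen nuclei carried the marker genes of ventricular muscle. Levels here are in CPM, the UMIs of a gene per 1000000 UMIs summed over the nuclei of 1 heart. Rbm20, a splicing factor of heart muscle that the rule did not use, stood at 7651 and 7849.6 CPM with an injured father, against 7797 and 7341 CPM with an uninjured father. In nuclei of the same hearts with under 3% of UMIs on Ttn, Ryr2 and Myh6, called non-muscle nuclei from here on, it stood at 550.1 and 579 CPM with an injured father, against 672 and 535 CPM with an uninjured father. Myl2, the regulatory light chain of ventricular myosin, stood at 895 and 1089 CPM with an injured father, against 1022 and 1139 CPM with an uninjured father, and Myl4, the essential light chain of atrial myosin, at 17.8 and 15.3 CPM with an injured father, against 16.3 and 16.5 CPM with an uninjured father. Fhod3 and Kcnd2, a formin of the sarcomere and a potassium channel, were at 4772, 4901, 4900.5 and 4334 CPM and at 3884, 3569, 4438 and 3936 CPM in the same order of hearts. All 8 ventricular markers were higher in these nuclei than in non-muscle nuclei in each of the 4 hearts. The rule fixes this for Ttn, Ryr2 and Myh6, and for the others it is a description with no test. Nuclei with 0.5% or more of their UMIs on the atrial genes were muscle too, with Rbm20 at 6584 and 6647 CPM with an injured father, against 6639 and 7046 CPM with an uninjured father. They were set apart more by the light chains. Myl2 stood at 93.1 and 93.8 CPM with an injured father, against 88.9 and 193 CPM with an uninjured father. Myl4 stood at 475 and 557 CPM with an injured father, against 887 and 1020.4 CPM with an uninjured father. These nuclei numbered 129 and 239 with an injured father and 106 and 22 with an uninjured father, so the values of the last heart rest on few nuclei.

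The depth behind these nuclei was 5779494 and 8910376 UMIs with an injured father and 9848239 and 6611959 UMIs with an uninjured father. The median nucleus held 4015.5 and 4635 UMIs against 4327 and 3045 UMIs, so heart 2 with an uninjured father was the shallowest. Nuclei marked as doublets made up 11.6% and 7.62% of the chosen nuclei with an injured father and 9.45% and 10.4% with an uninjured father. Pairs of libraries shared between 23 and 33 cell barcodes, and 3 shared barcodes were chosen nuclei in both libraries of a pair. The 5 fibroblast markers were between 116 and 184 CPM in sum (1432 to 1858 CPM in non-muscle nuclei) and the 5 macrophage markers between 26.5 and 38.1 CPM (387 to 615 CPM). The 4 smooth muscle markers summed to 239 and 146 CPM with an injured father and 292 and 275 CPM with an uninjured father. This was more than in non-muscle nuclei of each heart (122 and 77.9 CPM against 183 and 185 CPM). Most of it was the actin gene Acta2, at 233 and 142 CPM with an injured father, against 283 and 263 CPM with an uninjured father. Myh11, Tagln and Cnn1, the other smooth muscle markers, were each lower than in non-muscle nuclei in every heart. The 3 conduction markers summed to 29.9 and 40.3 CPM with an injured father and 31.3 and 40.5 CPM with an uninjured father. This sum was also above non-muscle nuclei (10.5 and 11.5 CPM against 12.5 and 9.95 CPM), while Cacna2d2, 1 of the 3, was lower than there in heart 1 with an uninjured father. The 7 atrial markers, 5 of them used by the rule, summed to 329 and 312 CPM with an injured father and 296 and 347 CPM with an uninjured father. In non-muscle nuclei they summed to 169 and 287 CPM against 169 and 122 CPM. Most of the sum in the chosen nuclei was Kcnj3, at 269 and 212 CPM with an injured father, against 243 and 287 CPM with an uninjured father. The 5 erythroid genes, for which the near-identical Hba-a1 and Hba-a2 may share reads, summed to 355 and 681 CPM with an injured father and 1439 and 408 CPM with an uninjured father. Adipocyte markers summed to 6.92 and 2.58 CPM against 0.711 and 1.06 CPM, with Adipoq, Cidec and Lep at 0 in at least 1 heart, and to 55.7 and 41.5 CPM against 3.86 and 3.35 CPM in non-muscle nuclei.

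Ventricular nuclei were a smaller part of the nuclei past the filter in both hearts with an injured father. They made up 13.7% and 15.9% of nuclei there, against 19.0% and 23.9% with an uninjured father, and the groups did not overlap. The means were 14.8% ± 1.52 and 21.5% ± 3.5 (SD, n = 2 each), a difference of -6.68 percentage points, with an exact permutation p of 0.333 (two-sided), which is the smallest p that 2 hearts against 2 allow. The limit on atrial UMIs was a number and not a share, so depth bears on it: 60.4% and 63.7% of the nuclei that met the other conditions were kept with an injured father, and 64.6% and 81.8% with an uninjured father, where the last is the shallowest library. With a limit of under 0.2% of UMIs in its place, an alternative chosen after the data were seen, the shares were 20.9% ± 1.12 and 27.6% ± 0.892 and the difference -6.66 percentage points. With every nucleus thinned to 500 UMIs before the rule was applied, they were 24.3% ± 2.01 and 31.3% ± 1.12. A lower share of these nuclei and a higher share of the others cannot be told apart in such data.

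**Figure D1:**
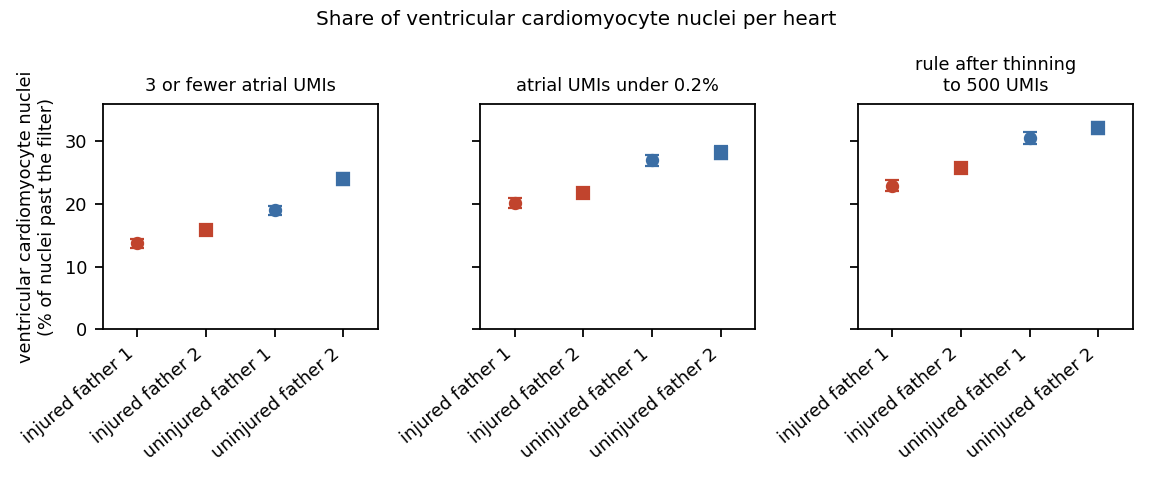
Share of ventricular cardiomyocyte nuclei among the nuclei past the filter (%, y axis) in each heart (x axis) under the limit of 3 or fewer atrial UMIs, under a limit of 0.2% atrial UMIs, and with nuclei thinned to 500 UMIs before the rule was applied. Points are hearts, red with an injured and blue with an uninjured father, and bars are 95% Wilson intervals, which cover counting error only; both hearts with an injured father lie below both others in each panel, at 13.7% and 15.9% against 19.0% and 23.9% in the first.

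The nuclei just inside and just outside the limits are given as a description. Those just inside the lower limit, with 3 to under 3.5% of UMIs on the 3 muscle genes, numbered 37 and 31 with an injured father and 40 and 30 with an uninjured father, and Rbm20 stood between 4274 and 5323 CPM in them. Those just outside, with 2.5 to under 3%, numbered 27 and 39 against 45 and 22, and Rbm20 stood between 2801 and 4822 CPM. Nuclei with exactly 3 atrial UMIs numbered 233 and 243 against 339 and 227, and nuclei that only the fourth atrial UMI kept out numbered 193 and 180 against 229 and 136. Myl4 stood between 17.7 and 21.4 CPM in nuclei with 3 atrial UMIs and between 11.6 and 26.6 CPM in nuclei with 4.

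Between hearts with injured and uninjured fathers no gene passed the threshold in ventricular nuclei. UMIs were summed over the ventricular nuclei of each heart, 12088 genes were tested with edgeR's quasi-likelihood test, and an adjusted p (Benjamini-Hochberg) under 0.05 was required. This called 0 genes higher and 0 lower (0% of genes tested). An unadjusted p under 0.05 was found for 158 genes with a positive log2 fold change (1.31%) and 198 with a negative one (1.64%). Both hearts with an injured father lay above both others for 1663 genes (13.8%) and below both for 1824 (15.1%). limma-voom called 0 and DESeq2 called 5, while without heart 1 with an injured father edgeR called 17 higher and 2 lower. The genes below are among the 10 with the smallest p in each direction, given as values on the scale of CPM after TMM scaling, which is used from here on.

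The largest log2 fold change among them belonged to Slc15a2 (chromosome 16, 36750177 to 36784962 on GRCm38), whose product carries di- and tripeptides into cells. It stood at 18.1 and 10.0 CPM with an injured father, against 0.104 and 0.584 CPM with an uninjured father (105 and 87 against 1 and 4 UMIs). The log2 fold change of 5.42 had an SE (standard error) of 0.58, and the adjusted p in edgeR was 0.0748. It passed the threshold without heart 1 with an injured father (adjusted p = 0.000418, edgeR) and without heart 2 with an injured father (0.0224), in DESeq2 (1.42e-08), and in nuclei from a limit of 5% in place of 3% (0.0292), and it did not without heart 1 or 2 with an uninjured father (0.654 and 0.939). The gene had a like difference in all other nuclei of these hearts, at 29.2 and 15.9 CPM with an injured father, against 0.291 and 0.818 CPM with an uninjured father, and the difference between the differences was 0.07 on the log2 scale (standard error 0.57). After thinning to 1000 UMIs, 1.76% and 0.84% of ventricular nuclei with an injured father held a UMI of it, against 4.33% and 2.29% of non-muscle nuclei of those hearts. With an uninjured father 0 ventricular nuclei held one, which allows shares of up to 0.152% and 0.157%. After this thinning the shares in ventricular nuclei were thus at or below those of non-muscle nuclei in every heart. With no thinning they were 7.34% and 4.29% with an injured father, against 7.69% and 4.47% in non-muscle nuclei. With an uninjured father they were 0.0506% and 0.210%, against 0.0986% and 0.204% in non-muscle nuclei. Whether these UMIs were background was not tested.

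Camk1d, a calcium-dependent protein kinase (chromosome 2, 5293457 to 5714515), had levels that did not overlap and stood at 3911 and 3576 CPM with an injured father, against 1837 and 1874 CPM with an uninjured father. Its log2 fold change was 1.01 (SE 0.15; edgeR, adjusted p = 0.271), and in the other nuclei it stood at 6194 and 5438 CPM with an injured father, against 2844 and 2555 CPM with an uninjured father. Car3, a carbonic anhydrase of muscle and fat (chromosome 3, 14863512 to 14872523), stood at 5.17 and 9.89 CPM with an injured father, against 0.623 and 0.438 CPM with an uninjured father, and in the other nuclei at 29.9 and 56 CPM with an injured father, against 2.56 and 3.33 CPM with an uninjured father. The adipocyte markers given above were also higher with an injured father, in ventricular and in non-muscle nuclei, and their part in the Car3 values was not tested. Prkar2b, a regulatory subunit of protein kinase A, had a log2 fold change of 2.74 and stood at 20.8 and 7.01 against 1.77 and 2.34 CPM, and in the other nuclei stood at 79 and 46.3 CPM with an injured father, against 14.5 and 12.5 CPM with an uninjured father.

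The other 6 of the 10 positive genes were of lower level or smaller difference, and they include a fuel gene and a clock gene. Ucp3, a carrier of the inner mitochondrial membrane whose gene is switched on by fatty acids, stood at 31.3 and 33.2 CPM with an injured father, against 13.9 and 15.9 CPM with an uninjured father. Its log2 fold change was 1.12 (SE 0.17; edgeR, adjusted p = 0.391), and over all 15 alternatives it ranged from 1.02 to 1.21. Arntl, which encodes the clock factor BMAL1, stood at 20.7 and 21.7 CPM with an injured father, against 9.03 and 11.1 CPM with an uninjured father. Ide, the insulin-degrading protease, stood at 322 and 289 against 203 and 168 CPM, and Fgf12, an intracellular partner of sodium channels, at 65.8 and 83.9 against 41.7 and 44.7 CPM. Adam12, a membrane protease, stood at 10.8 and 9.31 against 3.32 and 3.51 CPM, and Tspan2, a tetraspanin, at 8.96 and 7.24 against 2.49 and 2.04 CPM. The adjusted p of these 6 ran from 0.391 to 0.772 (edgeR), and both hearts with an injured father lay above both others for each.

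Among the negative genes were parts of the contractile cell. Tcap, the titin cap protein of the Z-disc, stood at 88 and 93.6 CPM with an injured father, against 134 and 171 CPM with an uninjured father. Its log2 fold change was -0.75 (SE 0.15; edgeR, adjusted p = 0.732) and ranged from -0.91 to -0.57 over the alternatives. Dhrs7c, an enzyme of the sarcoplasmic reticulum, stood at 59.2 and 56.5 against 86.8 and 99.2 CPM, and Adcy5, an adenylyl cyclase of heart muscle that makes cyclic AMP, at 237 and 217 against 318 and 316 CPM. Myl9, a light chain of smooth muscle myosin, stood at 4.31 and 3.79 against 9.55 and 9.2 CPM, beside the smooth muscle sums given above, which are not TMM-scaled and are mostly Acta2. Dcp1b, which acts in mRNA decapping, stood at 58.6 and 73.8 against 102 and 127 CPM, and Sycp3, known from meiotic chromosomes, at 16.9 and 17.5 against 28.3 and 43.1 CPM. Csf1, a growth factor of macrophages, stood at 62.3 and 51.7 against 84.1 and 86 CPM, and Col8a1, a collagen chain, at 15.5 and 13.3 against 21.9 and 31 CPM. Olfr55, of the large olfactory receptor family, had 0 and 2 against 13 and 15 UMIs, so few that no fold is given. None was called, and their adjusted p ran from 0.732 to 1 (edgeR).

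**Figure D2:**
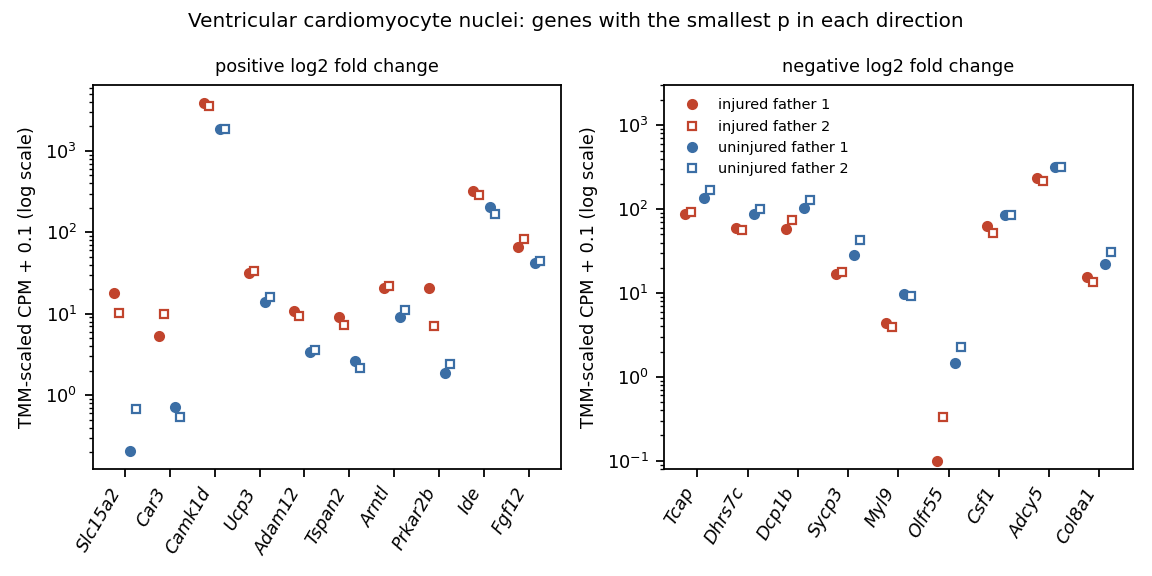
Levels of the genes described above, which have the smallest p in each direction (x axis), in ventricular nuclei of each heart, in TMM-scaled CPM with 0.1 added, on a log axis. Symbols are hearts, red with an injured and blue with an uninjured father, filled circles for heart 1 and open squares for heart 2; Slc15a2 has 18.1 and 10.0 CPM against 0.104 and 0.584 CPM, and no gene passed an adjusted p of 0.05.

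Log2 fold changes of contractile genes were mostly negative in 3 lists, with no member called. In the thick filament list 12 of 18 tested members had negative log2 fold changes (median -0.11), in the thin filament list 12 of 16 (-0.14) and in the Z-disc and costamere list 20 of 27 (-0.07), beside 6134 of 12088 for all genes tested. Both hearts with an injured father lay below both others for 5, 6 and 12 members and above them for 2, 2 and 0, beside 15.1% and 13.8% of all genes. Earlier results of these data had shown sarcomere genes on this side, so the counts are no independent evidence of it. The rule used Ttn and Myh6, both members of these lists, so their values are a description: Myh6, the adult heavy chain, stood at 10548 and 10961 CPM with an injured father, against 11367 and 12473 CPM with an uninjured father, and Ttn at 35595 and 37169.8 CPM with an injured father, against 33444 and 39012 CPM with an uninjured father. Myh7, the fetal and stress heavy chain, stood at 176 and 191 CPM with an injured father, against 229.9 and 373 CPM with an uninjured father, with hearts 1 and 2 with an injured father close together and heart 2 with an uninjured father well above heart 1; its log2 fold change was -0.72 (standard error 0.21, unadjusted p = 0.00699, edgeR).

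The other core members of the thick filament had log2 fold changes of Mybpc3 -0.16, Myl2 -0.10 and Myl3 -0.12. In the thin filament, Lmod2, which lengthens actin filaments, stood at 213 and 318 CPM with an injured father, against 394 and 429 CPM with an uninjured father (log2 fold change -0.63, standard error 0.18). Acta1, the skeletal muscle actin that the fetal heart also uses, stood at 7.58 and 4.37 against 9.66 and 14.9 CPM (-1.06, standard error 0.33). Cardiac actin and the troponins had smaller values, with Actc1 -0.18, Tnnt2 -0.21, Tnni3 -0.07, Tnnc1 -0.18 and Tpm1 -0.13. In the Z-disc list, Actn2 -0.02, Csrp3 -0.23, Ldb3 0.02 and Itgb1bp2 -0.37 were the values beside Tcap, and Csrp3, a stretch sensor, turned to 0.02 without heart 2 with an uninjured father.

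Genes of cell contacts and calcium handling had medians nearer to 0. In the intercalated disc list, the contacts between cardiomyocytes, 6 of 15 members were positive (median -0.01). Dsg2, a desmosomal cadherin, stood at 259.5 and 264 CPM with an injured father, against 204 and 185 CPM with an uninjured father, while Pkp2, a plakophilin of the same junction, stood at 333 and 433 CPM with an injured father, against 522 and 461 CPM with an uninjured father. The log2 fold changes of Cdh2, Gja1 and Dsp were 0.23, -0.13 and -0.15, and Lrrc10 had -0.57. In the calcium list 9 of 26 were positive (median -0.06), with the release channel Ryr2, which the rule used, at 0.12, the reuptake pump Atp2a2 at -0.03, its inhibitor Pln at -0.12, the entry channel Cacna1c at 0.15, the exchanger Slc8a1 at -0.17 and the buffer Casq2 at -0.01. Jph1, which holds the sarcoplasmic reticulum to the surface membrane, stood at 94.2 and 96.6 against 123 and 111 CPM, with both hearts with an injured father below both others.

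Ion channel genes were likewise mixed. Of 21 potassium channel genes 12 were positive (median 0.03), and Kcnk3, a leak channel, stood at 294 and 307 CPM with an injured father, against 261 and 199.7 CPM with an uninjured father. Kcnab1, a channel subunit, stood at 7.06 and 4.02 against 7.16 and 16.2 CPM, where heart 2 with an uninjured father alone was high. The core members Kcnd2 -0.15, Kcnj2 0.24, Kcnip2 0.06 and Kcnq1 -0.06 lay near 0, and Kcnj2 turned to -0.01 without heart 1 with an uninjured father. Of 14 genes of sodium channels and their partners 10 were positive (median 0.08), with Fgf13 at 0.22 beside Fgf12 at 0.80. Among 37 genes of adrenergic, cyclic nucleotide and hormone signalling 24 were positive (median 0.05). Pde3a, a phosphodiesterase that breaks down cyclic AMP, stood at 716 and 995 CPM with an injured father, against 654 and 449.6 CPM with an uninjured father, and Npr3, a receptor that clears natriuretic peptides and marks endocardium, at 18.6 and 23.9 against 9.55 and 14.2 CPM; Adrb1 and Pde4d had -0.16 and 0.11.

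Genes of fatty acid use stood out by their sign. Of 33 tested members 32 had positive log2 fold changes (median 0.26), beside 49.3% of all genes, and 10 had a positive log2 fold change with an unadjusted p under 0.05, beside 1.31% of all genes; 0 were called. Both hearts with an injured father lay above both others for 16 of the 33 and below for 1, beside 13.8% and 15.1% of all genes. The list's summed level was 3921 and 4684 CPM with an injured father and 3613 and 3671 CPM with an uninjured father. This side was seen earlier in these data in a wider class of nuclei, so it is no independent evidence. The list's median ran from 0.16 to 0.38 as each heart was left out in turn.

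The values of members along the route of fatty acids were as follows. At uptake, Cd36 stood at 610.5 and 719.8 CPM with an injured father, against 484 and 592 CPM with an uninjured father and Fabp3, the carrier in the cytosol, had 0.21. At entry into mitochondria, Cpt1a stood at 105 and 83.5 against 78.6 and 56.5 CPM and Slc25a20, which carries acylcarnitine across the inner membrane, at 54.1 and 42.9 against 31.6 and 30.2 CPM, while the muscle form Cpt1b had 0.39 and turned to -0.15 without heart 2 with an injured father. In the oxidation spiral, Eci2 stood at 54.9 and 61.5 against 44 and 38.1 CPM and Acaa2 at 56.8 and 52.5 against 39.2 and 41.9 CPM, and Acadm had 0.15 and Hadhb 0.31. Pdk4, a kinase that turns off pyruvate use, stood at 23.6 and 37.3 CPM with an injured father, against 15 and 19.3 CPM with an uninjured father (log2 fold change 0.85, standard error 0.24). The only negative member was Echs1, an enoyl-CoA hydratase, at -0.21.

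Nuclear genes of other fuel routes were split between the signs. Of 29 genes of glucose uptake and glycolysis 14 were positive (median -0.01), with Slc2a4, the insulin-dependent glucose transporter, at -0.16, Hk2 at -0.37 and Pfkm at -0.01. Of 36 nuclear-encoded genes of the respiratory chain 16 were positive (median -0.01), with Ndufs1 -0.07, Sdha -0.04, Uqcrc1 -0.0014, Cox7a1 -0.05 and Atp5b 0.05. Of the 13 mitochondrially encoded genes 12 were positive (median 0.11), with mt-Nd1 0.07, mt-Co1 0.17 and mt-Cytb 0.02, and the list's median ran from -0.12 to 0.34 as each heart was left out. The regulators of these genes were 10 of 18 positive (median 0.01), with Ppara at 809 and 620.1 against 783 and 645 CPM, Ppargc1a at 499 and 1044 against 760.3 and 763 CPM, Esrrg at 2516 and 2525 against 2431 and 2051 CPM and Esrra at 231 and 298 against 233 and 317 CPM. Pparg, the fat cell regulator of this family, stood at 71.3 and 41.9 against 35.8 and 39.6 CPM.

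Stress genes, growth genes and clock genes had values on both sides of 0. Of 25 fetal and stress genes 10 were positive (median -0.10). Both hearts with an injured father lay below both others for 7 and above for 0, beside 15.1% and 13.8% of all genes. Nppa stood at 34.1 and 72.6 CPM with an injured father, against 28 and 35.6 CPM with an uninjured father, where heart 2 with an injured father alone was high, Nppb at 18.6 and 29 against 22.8 and 28.8 CPM and Ankrd1, a stretch-responsive partner of titin, at 149 and 268 against 204 and 294 CPM. Of 30 cardiac transcription factors 21 were positive (median 0.10), with Mef2a -0.01, Mef2c -0.13, Gata4 0.16, Nkx2-5 -0.32, Tbx5 0.30 and Tbx20 0.12. Of 38 growth signal genes 24 were positive (median 0.02), with the neuregulin receptors Erbb4 at 0.07 and Erbb2 at -0.06, the Hippo effectors Yap1 at 0.19 and Tead1 at 0.02, and Lats2, a kinase that restrains Yap1, at 11.5 and 12.4 against 7.58 and 8.91 CPM.

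Cell cycle genes also lay on both sides of 0. Of 41 members 16 were too low to test and 25 were tested, beside 12088 tested of the 21884 genes in the files. Of the 25 tested, 13 were positive (median 0.03), with Mki67 -0.78, Top2a -0.50, Ccnd2 0.04 and Cdkn1a -0.0025. Of 19 clock genes 10 were positive (median 0.04): besides Arntl, Clock, its partner, stood at 108 and 119 against 94.5 and 87.6 CPM, Per1 at 47.9 and 43.1 against 43.1 and 40.7 CPM and Dbp at 21 and 10.2 against 19.9 and 24.7 CPM. Of 23 immediate early and heat shock genes 15 were positive (median 0.09), with Egr1 at 0.21 and Nr4a3 at 11.7 and 1.49 against 0.519 and 2.04 CPM, where heart 1 with an injured father alone was high; Fos and Hspa1a had 8 or fewer UMIs in each heart. Of 20 hypoxia genes 12 were positive (median 0.08), with Hif1a at 0.04, Vegfa at -0.01 and Bnip3, a mitophagy receptor, at 44.4 and 57 against 38.1 and 31.1 CPM, and Adm was too low to test. Of 20 interferon and antigen presentation genes 14 were positive (median 0.17), with H2-K1, a class I chain, at 20.8 and 20.8 against 11.1 and 15.2 CPM, and B2m at 0.32. Of 32 enzymes of DNA methylation and histone modification 18 were positive (median 0.02), with Dnmt3a at 0.14 and Tet2 at 0.01 and no member with an unadjusted p under 0.05. Beside these lists, markers of other cells in the same nuclei had median log2 fold changes from -0.88 (smooth muscle) to 2.12 (adipocyte, 1 gene tested), and their part in the values was not tested.

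**Figure D3:**
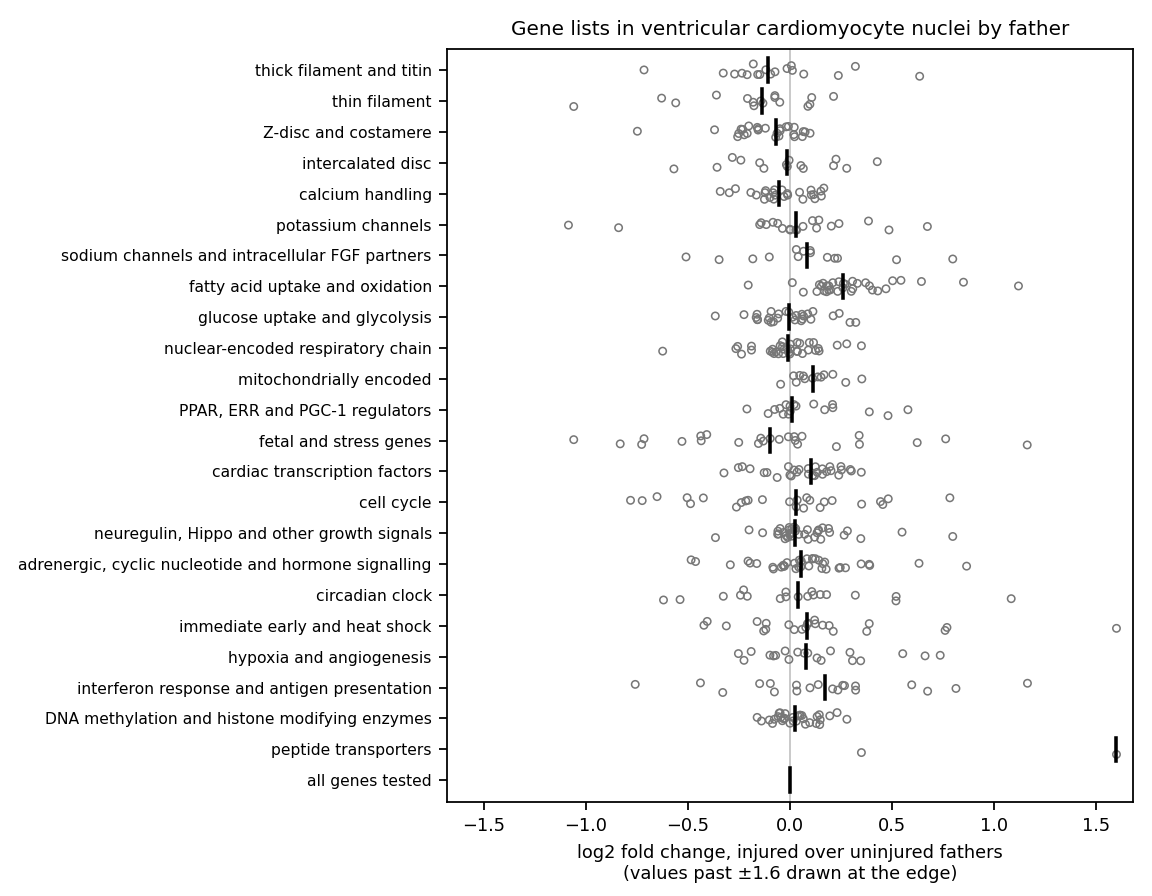
Log2 fold change between hearts with injured and uninjured fathers (x axis; positive is higher with an injured father) of the tested members of 23 gene lists in ventricular nuclei (y axis). Open circles are genes, black bars list medians, and 2 values past 1.6 are drawn at the edge together with the median of the peptide transporters; no gene was called, 32 of 33 fatty acid genes lie above 0, and 20 of 27 Z-disc genes lie below it.

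The father's difference in ventricular nuclei was then set against that in all other nuclei of the same hearts, with the heart as a block. No gene passed, with 0 higher and 0 lower among 14211 tested (0%), while 170 (1.2%) and 322 (2.27%) had an unadjusted p under 0.05 in the positive and negative direction (edgeR). The smallest p values on the positive side belonged to Tspan2 (difference of log2 fold changes 1.69), Adam12 (1.13) and Nrg1 (0.74), a ligand of the Erbb receptors that endothelium and endocardium make. Tspan2 stood at 10.5 and 8.48 against 2.94 and 2.38 CPM in ventricular nuclei and 25.9 and 25.6 against 22.5 and 26 CPM in the others, so that the hearts with an injured father were apart in ventricular nuclei and overlapped in the others. On the negative side stood Cidea (-2.08), Nrg4 (-1.53) and Pnpla3 (-1.43), which fat cells express. Cidea stood at 18.6 and 13.1 against 10.5 and 14 CPM in ventricular nuclei and 31 and 13.6 against 4.27 and 3.06 CPM in the others, beside the adipocyte marker sums given above. Against non-muscle nuclei alone, an alternative chosen after the data were seen, 0 genes were higher and 6 lower. Without heart 1 with an injured father 13 were higher and 36 lower against all other nuclei, and without heart 2 of that group 0 and 12.

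Tcap, Ucp3 and Myh7 had values on the same side in the other nuclei too. Tcap stood at 33.7 and 44.7 CPM with an injured father, against 64.1 and 53.7 CPM with an uninjured father in the other nuclei, Ucp3 at 11.8 and 8.76 CPM with an injured father, against 4.79 and 6.33 CPM with an uninjured father, and Myh7 at 50.2 and 56.3 CPM with an injured father, against 75.7 and 83.8 CPM with an uninjured father. The other nuclei include cardiomyocyte nuclei with 4 or more atrial UMIs. Arntl differed: in the other nuclei it stood at 25.8 and 36.7 CPM with an injured father, against 27.5 and 21.8 CPM with an uninjured father, which overlap, with a difference of log2 fold changes of 0.75 (unadjusted p = 0.00632, adjusted p = 1, edgeR).

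Nuclei that met the rule but for 4 or more atrial UMIs are the class most like ventricular nuclei. They numbered 823 and 955 with an injured father and 1082 and 426 with an uninjured father, but only 15.7% and 25% of them against 9.80% and 5.16% held 0.5% or more of their UMIs on the atrial genes. Most nuclei of the class thus held few atrial UMIs for their depth, and no atrial name is given to it. In this comparison 7 of 12247 genes (0.0572%) had a more positive father's difference in ventricular nuclei and 34 (0.278%) a more negative one. Those 34 included Kcnj3, which the rule used, and genes that stand high in the class. Plekha7, a junction protein, stood at 31.4 and 33.2 against 38 and 27.5 CPM in ventricular nuclei and 156 and 282 against 120.1 and 88.5 CPM in the others (difference of log2 fold changes -1.11, SE 0.15; edgeR, adjusted p = 0.000115). Dkk3, a secreted protein of atrial muscle, stood at 2.72 and 6.83 against 4.7 and 4.9 CPM in ventricular nuclei and 43.4 and 95.4 against 21.7 and 27 CPM in the others (-1.54), and Nav3 at 42 and 34.3 against 32.1 and 43.4 CPM in ventricular nuclei and 187 and 237 against 100.1 and 82.7 CPM in the others (-1.14). In these 3 genes the ventricular levels overlapped between the groups, and the other class was high with an injured father, beside its higher share of atrial-rich nuclei. Without heart 1 with an injured father the counts were 22 and 134, and without heart 2 of that group 10 and 16.

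The share of nuclei with a UMI was counted for 11 genes after every nucleus was thinned to 1000 UMIs, which left out between 3 and 13 nuclei per heart. A UMI of Ankrd1 was found in 7.67% and 13.9% against 11.9% and 15.7% of ventricular nuclei of hearts with injured and uninjured fathers, and in 1.38% and 3.59% against 2.42% and 3.41% of non-muscle nuclei. Myh7 was found in 14.7% and 15.4% against 18.7% and 32.4%, and in 1.26% and 1.52% against 1.19% and 1.95% of non-muscle nuclei. The hearts with an injured father lay below both others for Myh7, where heart 2 with an uninjured father stood far above the rest, and they overlapped for Ankrd1. Tcap was found in 8.55% and 8.76% against 12.7% and 16.7%, with non-muscle nuclei at 2.45% and 3.23% against 3.74% and 3.59%, and Acta1 in 0.639% and 0.42% against 0.964% and 1.42%.

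The differences of the group means were -10.5 percentage points for Myh7, -6.03 for Tcap and -0.66 for Acta1, each with an exact permutation p of 0.333 (two-sided), the smallest that 2 hearts against 2 allow and 0.733 after adjustment over the 11 genes. Xirp2, another gene of the Z-disc and intercalated disc, was found in 26.9% and 23.9% against 24.6% and 31.9% and Nppb in 1.68% and 2.34% against 1.78% and 2.78%, without a gap between the groups. Nppa was found in 3.04% and 6.06% against 2.34% and 2.05% of ventricular nuclei but in 3.58% and 7.86% against 3.38% and 2.25% of non-muscle nuclei, so that no difference is read from its shares. Mki67 and Top2a, genes of dividing cells, and Mbp, the myelin gene, were found in at most 0.32% of ventricular nuclei and in fewer of them than of non-muscle nuclei in every heart. Median depth before thinning was 4015.5 and 4635 UMIs against 4327 and 3045 UMIs in ventricular nuclei, and 1789 and 2220 UMIs against 1958 and 1562 UMIs in non-muscle nuclei.

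**Figure D4:**
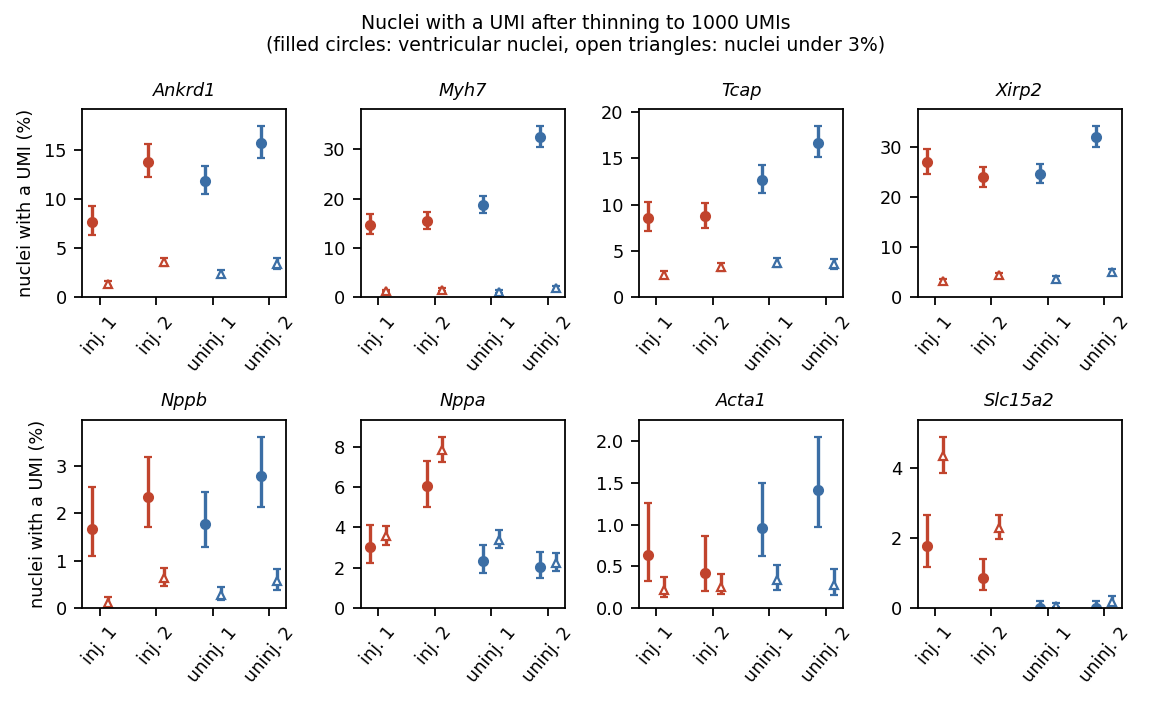
Share of nuclei with at least 1 UMI of each gene (%, y axis) after thinning to 1000 UMIs, in each heart (x axis; inj. 1 and 2 with an injured father in red, uninj. 1 and 2 with an uninjured father in blue). Filled circles are ventricular nuclei, open triangles non-muscle nuclei (under 3% of UMIs on the muscle genes), and bars 95% Wilson intervals for counting error only; Myh7 reaches 32.4% in heart 2 with an uninjured father, and Nppa and Slc15a2 are no more frequent in ventricular than in non-muscle nuclei.

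Ventricular nuclei with and without an Ankrd1 UMI were next compared within the hearts. The start regions of Ankrd1 and of 3 stress genes that were higher beside it are shown first, since these 4 genes lead what follows. Each is the 250 bases before the gene's start in RefSeq on GRCm38.p6, written 5′ to 3′ on the gene's strand. GENCODE starts Ankrd1 at 36120099, so that the whole Ankrd1 region lies within that gene as GENCODE has it. Nppb starts at 147985788 in GENCODE, so that part of the Nppb region lies within that gene. The GENCODE start of Acta1, 123894751, also differs from the RefSeq start. Distances of motifs are given from the RefSeq starts. Capitals mark the matches to 5 motifs. The box near many start sites was searched as TATAAA on the printed strand. The MCAT element, which TEAD factors bind, was searched as CATTCC on both strands. The site of GATA factors was searched as AGATAA on both strands. The CArG box of SRF and the site of MEF2 factors were searched on both strands by their usual patterns.
Ankrd1 (chr19:36119845-36120094, minus strand): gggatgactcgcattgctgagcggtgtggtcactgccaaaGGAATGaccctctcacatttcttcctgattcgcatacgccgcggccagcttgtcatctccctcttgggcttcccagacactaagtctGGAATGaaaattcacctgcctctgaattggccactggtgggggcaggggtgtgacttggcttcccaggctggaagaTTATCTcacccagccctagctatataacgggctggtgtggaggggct
Nppb (chr4:147985650-147985899, plus strand): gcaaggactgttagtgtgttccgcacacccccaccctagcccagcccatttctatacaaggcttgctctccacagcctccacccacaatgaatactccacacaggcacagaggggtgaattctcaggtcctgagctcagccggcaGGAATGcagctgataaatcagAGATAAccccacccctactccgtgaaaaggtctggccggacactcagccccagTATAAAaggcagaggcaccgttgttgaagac
Nppa (chr4:148000472-148000721, plus strand): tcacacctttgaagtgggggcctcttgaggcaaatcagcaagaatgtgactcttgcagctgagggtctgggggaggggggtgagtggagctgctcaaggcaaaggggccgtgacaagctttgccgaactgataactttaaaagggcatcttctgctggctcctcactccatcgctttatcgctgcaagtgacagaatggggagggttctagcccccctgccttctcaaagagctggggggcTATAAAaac
Acta1 (chr8:123894776-123895025, minus strand): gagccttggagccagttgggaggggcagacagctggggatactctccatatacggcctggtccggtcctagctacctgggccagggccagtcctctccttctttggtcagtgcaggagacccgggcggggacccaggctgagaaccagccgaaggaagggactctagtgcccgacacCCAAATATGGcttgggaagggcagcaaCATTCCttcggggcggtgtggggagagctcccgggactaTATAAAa
The Ankrd1 region held 2 MCAT elements, with their first bases 210 and 123 bases before the start, and a GATA site at 47. The Nppb region held an MCAT element at 105, a GATA site at 84 and TATAAA at 31, the Acta1 region a CArG box at 73, an MCAT element at 46 and TATAAA at 7, and the Nppa region TATAAA at 9. Among the 32851 RefSeq regions of that length, 12.6% held an MCAT element, 9.99% the GATA site, 7.59% TATAAA, 1.47% a CArG box and 2.92% a MEF2 site. Of the genes higher in nuclei with an Ankrd1 UMI as described next, 256 could be matched, and 17.6%, 10.5%, 7.81%, 3.13% and 5.47% of their regions held the same motifs. Of the genes lower in those nuclei, 160 could be matched, with shares of 14.4%, 6.25%, 7.5%, 1.88% and 8.13%. For the 8338 matched genes tested the shares were 12.7%, 6.99%, 4.4%, 1.52% and 2.23%. These are counts of letters, not of bound sites, and no test was made on them.

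Over all 4 hearts 861 of 6792 ventricular nuclei held an Ankrd1 UMI after thinning, 96 and 231 with an injured father and 234 and 300 with an uninjured father, and 516 of the 861 held exactly 1. All UMIs of the nuclei so sorted were summed by heart, Ankrd1 itself was left out, and the sums were compared with the heart as a block. Of 10480 genes tested 334 (3.19%) were higher in nuclei with an Ankrd1 UMI and 214 (2.04%) were lower (edgeR, adjusted p under 0.05). The median depth was 4541.5, 5337, 4745 and 3322.5 UMIs in nuclei with the UMI and 3987, 4606, 4291.5 and 2982 UMIs in those without (hearts 1 and 2 with an injured, then 1 and 2 with an uninjured father, the order used from here on). Doublets were 9.38%, 9.09%, 8.55% and 8.67% against 11.7%, 7.04%, 9.39% and 10.5%. Without doublets 376 genes were higher and 223 lower, and with the 1000 drawn UMIs summed in place of all UMIs, an alternative chosen after the data were seen, 108 and 62 of 6834 genes.

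The natriuretic peptide genes rose with Ankrd1 in every heart. Nppb, made by stretched ventricular muscle, stood at 65.1, 91, 58.4 and 63.7 CPM in nuclei with an Ankrd1 UMI and 13.9, 17.9, 17.6 and 22.1 CPM in nuclei without. Its log2 fold change was 1.94 (SE 0.14; edgeR, adjusted p = 7.93e-10). Nppa stood at 106, 148, 79.6 and 111 CPM with the UMI and 26.8, 59.3, 20.3 and 21.1 CPM without (1.83, adjusted p = 6.51e-10, edgeR). Non-muscle nuclei had 37.3 and 87.9 CPM with an injured father, against 34.9 and 26.4 CPM with an uninjured father of Nppa before TMM scaling, which lies below the nuclei with the UMI in each heart. Acta1 stood at 31.6, 9.18, 20.3 and 28.7 CPM with the UMI and 5.14, 3.53, 8.11 and 12.3 CPM without (1.53). Of 21 tested fetal and stress genes 10 were higher and 0 lower (median 0.43), and besides these 3 they were Xirp2, Ccn2, Enah, Clu, Des, Hspb7 and Flnc. Ccn2, a matrix protein that responds to Hippo signalling, rose by 1.08, and Enah, which lengthens actin filaments, by 0.69. Myh7, of the same list, stood at 199, 230.3, 207 and 385 CPM with the UMI and 174, 184, 234 and 373 CPM without, and was not called (0.08 on the log2 scale, SE 0.07; edgeR, adjusted p = 0.682).

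The 10 genes with the smallest adjusted p on the higher side held their call under each of the 8 alternatives. Creb5, a transcription factor of the CREB family, stood at 465, 412, 354 and 411 CPM in nuclei with an Ankrd1 UMI and 149, 149, 152 and 153 CPM in nuclei without (log2 fold change 1.42, SE 0.06; edgeR, adjusted p = 8.67e-14). Its levels without the UMI were nearly the same in the 4 hearts. Tlr4, a receptor of bacterial lipopolysaccharide, rose by 1.5, Tox3, a nuclear HMG-box protein, by 1.45, and Grk5, a kinase that desensitizes adrenergic receptors, by 0.98. Casq1, the calcium buffer of skeletal muscle, rose by 2.42, with heart 2 with an injured father the lowest at 22.2 CPM with the UMI against 5.84 CPM without. Gnao1, a G protein subunit, rose by 1.34, Sorbs2, an adaptor of the Z-disc, by 0.89, Xirp2 by 0.73 and Prkg1, the cyclic GMP kinase, by 0.59. The growth factor gene Tgfb2 rose by 1.36 and stood at 128, 116, 86 and 95.1 CPM with the UMI and 42.4, 36, 37.2 and 49.2 CPM without.

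Genes of the Z-disc were among those higher, and potassium channel genes among those lower. Of 26 tested genes of the Z-disc and costamere 11 were higher and 0 lower (median 0.23), beside 3.19% higher and 2.04% lower of all genes tested. They include Sorbs2, Pdlim3 (0.98), Csrp3 (0.50), Des (0.46) and Actn2 (0.25), while Tcap had -0.07 (adjusted p = 0.779, edgeR). In the thick filament 5 of 18 were higher, among them Mybpc3 by 0.41, and 2 lower, Mylk3 and Myh6, of which the rule used Myh6. In the thin filament 4 of 16 were higher, Acta1, Xirp2, Lmod2 and Tnnc1, and 1 was lower, Fhod3. Myl2 had 0.02 and was not called, nor was Ttn, which the rule used, at 0.05.

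Of 18 potassium channel genes 0 were higher and 5 lower (median -0.14). Kcnj2, which sets the resting potential, stood at 29.8, 23.7, 19.5 and 25.1 CPM with the UMI and 42, 41.5, 28.7 and 43.4 CPM without (-0.69, adjusted p = 0.0038, edgeR). Kcnd2, which carries the transient outward current, stood at 2235, 2681, 3449 and 3099.7 CPM with the UMI and 4041, 3841, 4704 and 3964 CPM without, lower in 4 of 4 hearts (-0.53). Kcnd3, Kcnj12 and Kcnj3 were the others, of which the rule used Kcnj3. Of 11 genes of sodium channels and their partners 4 were lower and 1 higher: Fgf14 fell by 1.00 on the log2 scale, and Fgf12 rose by 1.06. The calcium pump Atp2a2 fell by 0.24 and the exchanger Slc8a1 rose by 0.13, among 5 higher and 1 lower of 26 calcium genes. Angpt1, an endothelial growth factor that cardiomyocytes make, fell by 1.02, and Pde1c, a phosphodiesterase, by 0.39.

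Other genes with the smallest adjusted p on the lower side were Rbfox1, a splicing factor, which fell by 0.56, Magi2, a scaffold protein, by 0.46, Wnk2, a kinase of ion transport, by 0.69, Rp1 by 1.27, Mpped2 by 0.65, Lrrc3b by 0.54 and Pdzrn4 by 0.71. Among energy genes, of 36 respiratory chain genes 0 were called, and of 33 fatty acid genes 1 was higher, Acadl, and 2 lower, Lpl and Cpt1a. Of 29 genes of glucose uptake and glycolysis 3 were higher and 2 lower. Of 18 PPAR, ERR and PGC-1 regulators 1 was higher, Pparg, and 3 lower, Ppara, Rxrg and Esrrb. Of all genes tested 3.19% were higher and 2.04% lower. Pparg was called higher on heart 1 with an injured father alone, at 307 CPM with the UMI against 39.8 to 43.1 CPM in the other 3. Of markers of other cells, 0 of 4 tested fibroblast, 0 of 5 endothelial, 0 of 3 smooth muscle and 0 of 4 macrophage markers were called (tested smooth muscle markers 296, 191, 278 and 335 CPM in sum with the UMI and 232, 142, 302 and 253 CPM without), and of the 5 erythroid genes Hba-a1 was lower.

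**Figure D5:**
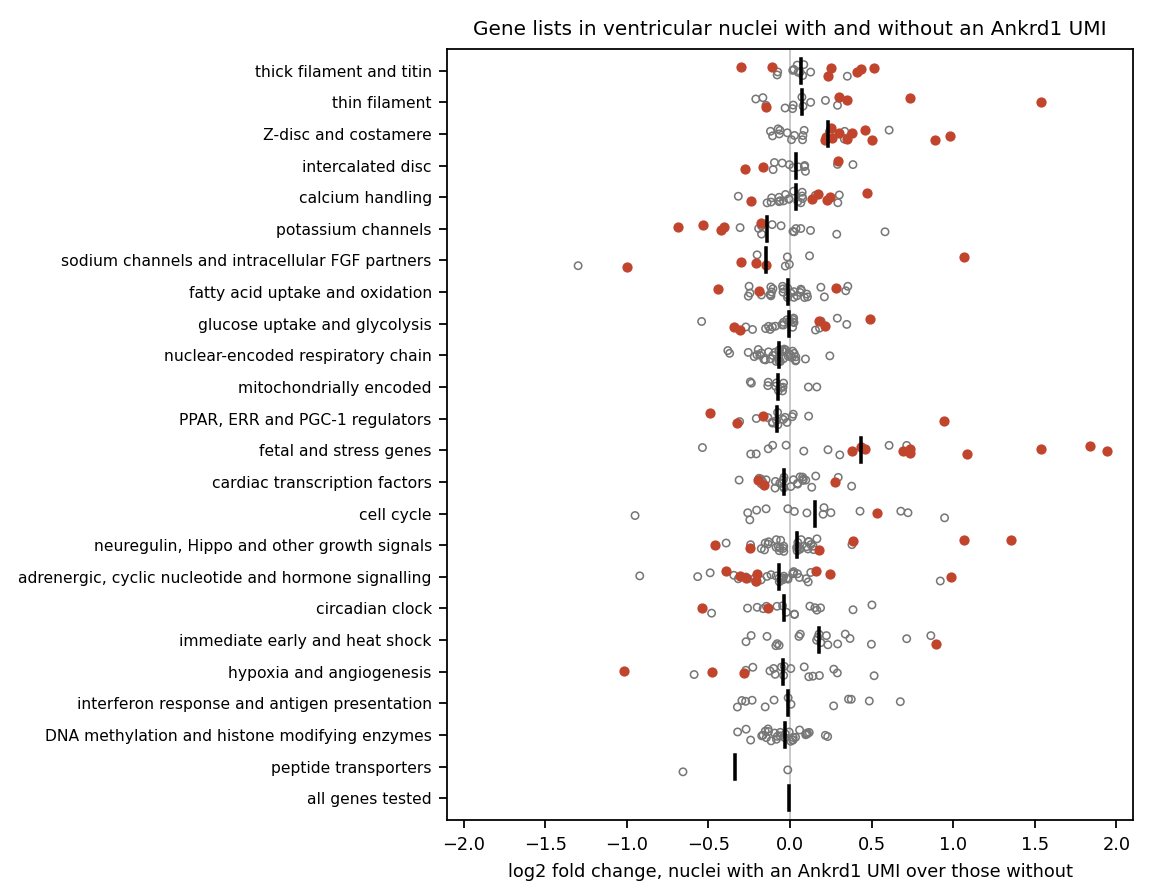
Log2 fold change between ventricular nuclei with and without an Ankrd1 UMI (x axis; positive is higher with the UMI) of the tested members of 23 gene lists (y axis). Red points passed an adjusted p of 0.05 (edgeR, heart as a block), open circles did not, and black bars are list medians; 10 of 21 fetal and stress genes and 11 of 26 Z-disc genes are red on the right, and 5 of 18 potassium channel genes are red on the left.

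A split of the same nuclei by Myh7 called fewer genes. A Myh7 UMI was held by 184 and 257 nuclei with an injured father and 368 and 618 with an uninjured father, and 1220 of the 1427 held exactly 1. Of 10481 genes 10 (0.0954%) were higher and 52 (0.496%) lower with the UMI (edgeR). The higher genes included Fgfr2 (0.27), a receptor of fibroblast growth factors, Rsrp1, Lrrtm3, Fat3, Kcnd2, Sycp3, Tenm2 and Smtn, and also Myh6 (0.13), which the rule used, so that its value is a description. Fgfr2 stood at 352, 417, 452 and 548 CPM in nuclei with a Myh7 UMI and 255, 333, 384 and 495 CPM in those without. Of the 13 mitochondrially encoded genes 9 were lower, among them mt-Co1 by 0.32 and mt-Co3 by 0.36 on the log2 scale. Flt1, an endothelial receptor, fell by 0.73, and Grip1, a scaffold protein, by 1.01; also lower were Taco1, Tshz2, mt-Nd4, mt-Atp6, mt-Cytb and mt-Nd1 among the 10 smallest p.

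Markers of other cells moved with the Myh7 split. The 5 endothelial markers summed to 101, 104, 89.6 and 153 CPM in nuclei with the UMI and 165, 178, 137 and 192 CPM in those without, with 2 of 5 lower, and 3 of 5 erythroid genes were lower; their part in the result was not tested. Without doublets 2 genes were higher and 15 lower, and with the 1000 drawn UMIs summed, 1 and 7. Leaving out heart 2 with an uninjured father gave 4 and 17, and leaving out heart 2 with an injured father 8 and 28. Of the 334 and 10 genes called higher with Ankrd1 and with Myh7, 0 were shared, beside 3.19% and 0.0954% of all genes tested that were higher. With only 10 genes higher with Myh7, nothing is read from this. Among the lower genes 4 were shared, Egfl7, Hba-a1, Pcdh17 and Plcb1, which is 1.87% of the 214 lower with Ankrd1 and 7.69% of the 52 lower with Myh7, beside 0.496% and 2.04% of all genes tested that were lower with Myh7 and with Ankrd1.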

How the data were processed

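Each library holds the nuclei of 1 heart, and the deposited matrices give raw UMI counts per gene and nucleus for 21884 genes. Per the file headers, the authors used Cell Ranger 6.0.1, and the submitters' processing notes also name Seurat 4.0. The sources used here name neither the genome build nor the annotation, nor whether intronic reads were counted; 21779 gene IDs matched GENCODE on GRCm38, from which gene positions were taken.

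Barcodes with 500 or more UMIs, 300 or more genes and under 5% mitochondrial UMIs were kept. The rule for ventricular nuclei was then applied to raw counts, and doublets were marked with Scrublet in scanpy 1.11.5 but kept. The members and all gene lists were chosen with earlier results of these data known. UMIs were summed per heart over the members, low genes were removed with filterByExpr (minimum count 10), TMM factors scaled the libraries, and edgeR 4.0.16 (R 4.3.3) fitted the quasi-likelihood test with Benjamini-Hochberg adjustment. Standard errors were taken as the absolute log2 fold change over the square root of F. With 2 hearts a group, p-values rest on the spread between these hearts, which edgeR estimates with information shared over genes, and litters are not given. In comparisons between fathers with a heart left out, 1 group holds a single heart. Calls and p-values of those fits measure no spread within that group. Differences between nuclei of the same hearts were fitted with the heart as a block. CPM values of the comparison with other nuclei and of the Ankrd1 and Myh7 splits were TMM-scaled within each of those fits. For the splits, nuclei were sorted on counts thinned to 1000 UMIs and all their UMIs were summed; the same split by Nppb was not run, since 3 of the 4 hearts had under 50 nuclei with the UMI.

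Genes named are the 10 with the smallest p in each direction, the core members of each list with up to 2 others of smallest p, and the markers and genes of the membership rule, leaving out predicted genes. Some genes that this rule names are not reported here. Alternatives were RLE scaling, no filter, the replicate number as a block, DESeq2 1.42.0, limma-voom (limma 3.58.1), each heart left out in turn, doublets left out, a minimum of 1000 UMIs, other limits of the membership rule and sums thinned to the smallest library. The tests were also run on simulated counts with the same fixed dispersion for every gene. That spread was not taken from these hearts, so the run does not give the power of the tests here. Python 3.11.15 was used with scipy 1.17.1 for exact permutation tests, and intervals are Wilson 95% intervals for counting error only.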

Additional observations from a re-analysis of the deposited data

Results flagged for a closer look

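The difference between hearts with injured and uninjured fathers was not the same in ventricular nuclei and in nuclei kept out of the rule by 4 or more atrial UMIs. The difference itself was tested, as an interaction with the heart as a block (edgeR), and passed an adjusted p of 0.05 with 7 genes more positive and 34 more negative in ventricular nuclei. The more positive genes named were Ephb1 at 0.9 on the log2 scale, Slit2 at 0.77, Nkain2 at 0.68, Thsd7a at 0.62, Adra1a at 0.39, Creb5 at 0.37 and Fhl2 at 0.19. The 10 more negative genes with the smallest adjusted p were Dkk3 at -1.54, Irag1 at -1.45, Daam2 at -1.3, Nav3 at -1.14, Plekha7 at -1.11, Cyria at -1.07, Kcnj3 at -0.7, Slit3 at -0.69, Psd3 at -0.66 and Erbb4 at -0.3. The rule used Kcnj3 to part the classes, so its value is a description and not a test. Of these 17 genes 8 lost the call under at least 1 alternative. The share of nuclei in the other class with 0.5% or more atrial UMIs was 15.7% and 25% with an injured father and 9.80% and 5.16% with an uninjured father, and its part in these values was not tested.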

How the results depend on the processing

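No gene was called between fathers in the main comparison, and with no filter on low counts 37 genes were higher and 32 lower, with DESeq2 5 and 0, and from a limit of 5% on the muscle genes 1 and 0. Leaving out each heart in turn gave 0 to 17 higher and 0 to 2 lower. The correlation of same-numbered hearts' deviations from their group means was 0.0075. With 2 hearts a group this does not settle whether the replicate numbers pair the hearts. With the replicate number as a block 4 genes were higher and 3 lower. Of 100 genes named for that comparison 39 changed sign under at least 1 alternative and the 20 with the smallest p did not; with a heart left out, Csrp3 ran from -0.50 to 0.016, Kcnj2 from -0.011 to 0.52 and Cpt1b from -0.15 to 0.73. Against all other nuclei, no filter gave 3 genes higher and 27 lower, non-muscle nuclei alone gave 6 lower, and leaving out a heart gave 0 to 13 higher and 0 to 36 lower. Against nuclei with 4 or more atrial UMIs, no filter gave 18 and 71, leaving doublets out gave 13 higher, and leaving out a heart gave 8 to 22 higher and 16 to 134 lower. The Ankrd1 split gave 353 lower with no filter, 108 and 62 with UMIs summed after thinning, and 216 to 311 higher and 103 to 168 lower with a heart left out. The Myh7 split gave 84 lower with no filter, 1 and 7 with UMIs summed after thinning, 2 and 15 without doublets, and 4 to 12 higher and 17 to 58 lower with a heart left out.

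The share of ventricular nuclei stayed lower with an injured father under every alternative run, with differences from -9.15 to -4.21 percentage points. Differences in the share of nuclei with a UMI turned round for Xirp2 with no thinning (1.16 percentage points), for Mki67 with no thinning (0.0888) and with 500 UMIs (0.123), and for Mbp with no thinning (0.700) and with 500 UMIs (0.0732). With a heart left out they ran from -6.14 to 0.0524 for Ankrd1, -6.45 to 0.845 for Xirp2, -0.772 to 0.233 for Nppb, -0.103 to 0.216 for Top2a and -0.208 to 0.0319 for Mbp. List medians on the log2 scale moved as follows with a heart left out: thick filament -0.25 to 0.014, thin filament -0.29 to -0.082, Z-disc -0.19 to -0.024, intercalated disc -0.064 to 0.046, calcium -0.082 to -0.018, potassium channels -0.050 to 0.091, glycolysis -0.035 to 0.017, regulators -0.016 to 0.094, fetal and stress -0.21 to -0.014, transcription factors 0.021 to 0.13, cell cycle -0.15 to 0.086, growth 0.026 to 0.090, adrenergic 0.017 to 0.11, clock -0.079 to 0.063, hypoxia 0.084 to 0.11, interferon -0.022 to 0.39, epigenetic enzymes 0.0055 to 0.091, sodium channels 0.05 to 0.14, respiratory chain -0.15 to 0.14, mitochondrially encoded -0.12 to 0.34, immediate early -0.20 to 0.33, fatty acids 0.16 to 0.38 and peptide transporters 2.5 to 3.54. Without doublets the adrenergic, clock and hypoxia medians were 0.079, 0.019 and 0.034, and under 0.2% atrial UMIs the adrenergic, clock, hypoxia and intercalated disc medians were 0.069, 0.059, 0.016 and -0.077. The cause of these moves was not tested.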
